A study of Mus musculus with 20 samples.

Results

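A set of 30 transcripts that macrophages are known for was followed through cultures of mouse tenocytes, the fibroblast-like cells of tendon, from tail tendons of adult C57Bl/6 mice. The members are the rows of the count table that carry the names of 30 listed genes, of 29986 genes in all. The list was chosen with earlier results of these data known, so counts of its members called are descriptions. The cultures received recombinant insulin-like growth factor 1 (IGF1) at 100 ng/mL for 1, 2, 6 or 24 h, and the 0 h cultures received none. RNA sequencing gave 20 libraries, 4 per time. Every library is a bulk sample, so more macrophages, more of a transcript per macrophage and expression by tenocytes or other cells cannot be told apart. Cultures kept without IGF1 for the same lengths of time were not analysed here, so IGF1 and time in culture cannot be told apart. Nothing in the labels ties a replicate to its own mouse or culture dish, so the p-values measure only the spread between these libraries, which may be technical.

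Macrophages are tissue phagocytes that depend on signalling through the CSF1 receptor and on the transcription factor PU.1, which Spi1 encodes. Tendon, like other connective tissues, holds resident macrophages, and cells isolated from it can carry some of them along. Some macrophage transcripts mark the lineage in most states (the receptors Csf1r and Adgre1, the C1q chains, the adaptor Tyrobp). Others are known to increase when macrophages are activated, take up lipid or fuse (the elastase Mmp12, the integrin Itgax, the proton pump subunit Atp6v0d2, the lipid receptor Trem2 and the glycoprotein Gpnmb). The 30 members were placed in 6 role classes. The first 4 of these, (leukocyte-wide, macrophage lineage, adaptors and Fc receptors, complement), with 21 members, are called lineage members below, and the 5 genes just named are called activation members.

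PU.1 binds a GAGGAA core, and promoters are shown for the members that carry this core extended to GAGGAAGT, as the members share a cell type in which PU.1 acts. RefSeq promoter windows on the GRCm38.p6 build, 300 bases long (250 before and 50 after a start), matched 22 of 30 members with 27 windows. GAGGAA on either strand was in 16 of the 27 windows (59.3%), against 28.3% of all 32851 windows in the table. GAGGAAGT on either strand was in 4 of the 27 (14.8%), against 3.20% of all. The longer motif contains the shorter one. Capitals mark both motifs on either strand, and in all 4 windows the longer one reads ACTTCCTC on the gene's own strand.
Ctss, chr3:95526536-95526835, plus strand: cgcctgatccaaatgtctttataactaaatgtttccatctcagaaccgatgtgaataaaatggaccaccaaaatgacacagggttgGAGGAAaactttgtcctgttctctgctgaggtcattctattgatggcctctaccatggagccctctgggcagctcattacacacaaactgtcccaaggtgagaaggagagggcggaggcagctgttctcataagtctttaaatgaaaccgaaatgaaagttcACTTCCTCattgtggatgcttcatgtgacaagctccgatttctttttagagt
Cd53, chr3:106790100-106790399, minus strand: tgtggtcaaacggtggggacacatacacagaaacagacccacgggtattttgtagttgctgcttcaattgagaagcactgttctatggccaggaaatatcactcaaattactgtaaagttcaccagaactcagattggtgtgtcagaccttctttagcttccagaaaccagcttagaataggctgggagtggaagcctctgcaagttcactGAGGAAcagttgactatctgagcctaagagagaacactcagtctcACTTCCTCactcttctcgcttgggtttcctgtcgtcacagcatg
C1qc, chr4:136892865-136893164, minus strand: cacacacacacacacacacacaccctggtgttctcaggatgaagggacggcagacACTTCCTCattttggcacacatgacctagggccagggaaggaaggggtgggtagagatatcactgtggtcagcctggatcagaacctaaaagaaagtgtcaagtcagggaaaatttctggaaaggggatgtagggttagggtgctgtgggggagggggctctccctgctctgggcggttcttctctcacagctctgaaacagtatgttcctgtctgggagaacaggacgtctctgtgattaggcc
Mmp12, chr9:7344147-7344446, plus strand: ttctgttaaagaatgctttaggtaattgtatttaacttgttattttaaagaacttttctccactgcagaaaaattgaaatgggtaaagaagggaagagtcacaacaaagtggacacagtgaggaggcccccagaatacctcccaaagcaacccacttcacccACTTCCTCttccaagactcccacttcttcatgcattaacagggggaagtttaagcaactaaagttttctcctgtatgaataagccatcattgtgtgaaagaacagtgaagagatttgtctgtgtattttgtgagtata
Ctss encodes the lysosomal protease cathepsin S, Cd53 a leukocyte tetraspanin, C1qc a chain of complement C1q and Mmp12 the macrophage elastase. The Ctss and Cd53 windows hold a separate GAGGAA as well. Mmp12 has another window that holds neither motif. The windows of Lyz2, Itgax, Gpnmb, Fcer1g, Coro1a, Lcp1 and Cx3cr1 hold neither motif. These are matches of letters, not binding sites. The members Atp6v0d2, Spi1, Cd52, Cd14, Tyrobp, Csf1r, C1qa and Adgre1 are named only.

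The members were a small part of the RNA. They held 0.150% to 0.521% of the counts of a library, at totals of 13734425 to 22687173 counts. Library 2 h replicate 2 had the highest share and 2 h replicate 1 the next, at 0.315%. Per length, in CPM (counts scaled to a common library size) per kilobase of exons at 0 h, Gpnmb was highest at 291 ± 3.26, followed by Lyz2 at 163 ± 16.0 and Ctss at 20.3 ± 4.65 (SD, n = 4). Cd68 (13.5 ± 1.86) and Tyrobp (10.3 ± 1.47) came next. C1qa (7.52 ± 0.727), C1qb (7.06 ± 0.462) and Fcer1g (6.47 ± 1.14) lay within each other's spread. Csf1r stood at 1.79 ± 0.110 on this scale and Ptprc at 0.144 ± 0.0365. Gpnmb alone made up 80.3% to 83.6% of the members' summed CPM at 0 h, so that sum mostly follows 1 gene. In CPM not divided by length, Gpnmb at 0 h (1875 to 1918) lay above the tenocyte marker Scx (1630 to 1807). The levels of these genes per length were not compared. Which cells the Gpnmb transcripts came from was not tested.

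Of the 30 members, 26 passed the filter on low counts and were tested among 14420 genes. The other 4 stayed at the edge of detection. The small leukocyte surface glycoprotein Cd52 and the fractalkine receptor Cx3cr1 had 28 counts each over all 20 libraries, the high-affinity Fc receptor Fcgr1 had 32 and the actin-binding Aif1 had 102. Cx3cr1 had 0.0478, 0.201, 0.288 and 0.0574 CPM in 2 h replicates 1 to 4, against 0, 0.102, 0 and 0 CPM at 0 h. Fcgr1 had 0.0957, 0.0503, 0.173 and 0.172 CPM in the 2 h libraries, against 0.278, 0, 0.109 and 0 CPM at 0 h. These values overlap and rest on a few reads each. Fcgr1 and the tested Fcgr3 belong to a family of similar sequences, and Lyz2 has the near-identical paralog Lyz1. How reads that fit several copies were counted is not given in the sources used here, so the split within each family is uncertain.

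Markers of other cells were checked beside the members. Tenocyte markers summed to 53306 to 83651 CPM over all libraries. T and NK cell markers reached at most 2.16 CPM in any library, B cell markers 0.640, neutrophil markers 0.461 and mast cell markers 2.06. Dendritic cell markers summed to 2.16 to 9.24 CPM over all libraries. At 0 h this sum was 3.82 to 4.78 CPM, above the levels of low members such as Ptprc and Spi1, and at 0 h and 2 h most of it was the transcription factor Zbtb46. The tenocyte markers were thus abundant in the labelled tenocytes, and the markers of T, NK, B and mast cells and neutrophils were low.

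After 2 h of IGF1 nearly all tested macrophage transcripts were called higher than at 0 h. Of 26 tested members, 23 were called higher and none lower, beside 20.2% of all tested genes called higher and 17.5% called lower (edgeR quasi-likelihood test, Benjamini-Hochberg adjusted p under 0.05). The members' median log2 fold change was 1.46, against -0.01 over all tested genes. In 21 members all 4 libraries at 2 h lay above all 4 at 0 h, and in none below, beside 15.0% of all tested genes above and 14.6% below. Coro1a, an actin regulator of leukocytes (0.62 ± 0.34, adjusted p = 0.163), the lipopolysaccharide co-receptor Cd14 (0.10 ± 0.14, adjusted p = 0.611) and Gpnmb (0.10 ± 0.08, adjusted p = 0.336) did not pass. The number of calls depended on which 2 h libraries entered: without replicate 2 it was 15, and without replicates 1 and 2 edgeR called 0 of 27 tested members (1 at an unadjusted p under 0.05) and DESeq2 called 1, C1qb, while the median log2 fold change was 0.55 and edgeR called 4815 of 14950 genes. Without 2 h replicates 2 and 4, a pair chosen after seeing the data, 12 members were called. For the fits without replicate 2 and without replicates 2 and 4, the share of all genes called is not given here. Their counts of members thus stand without that background.

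**Figure D1:**
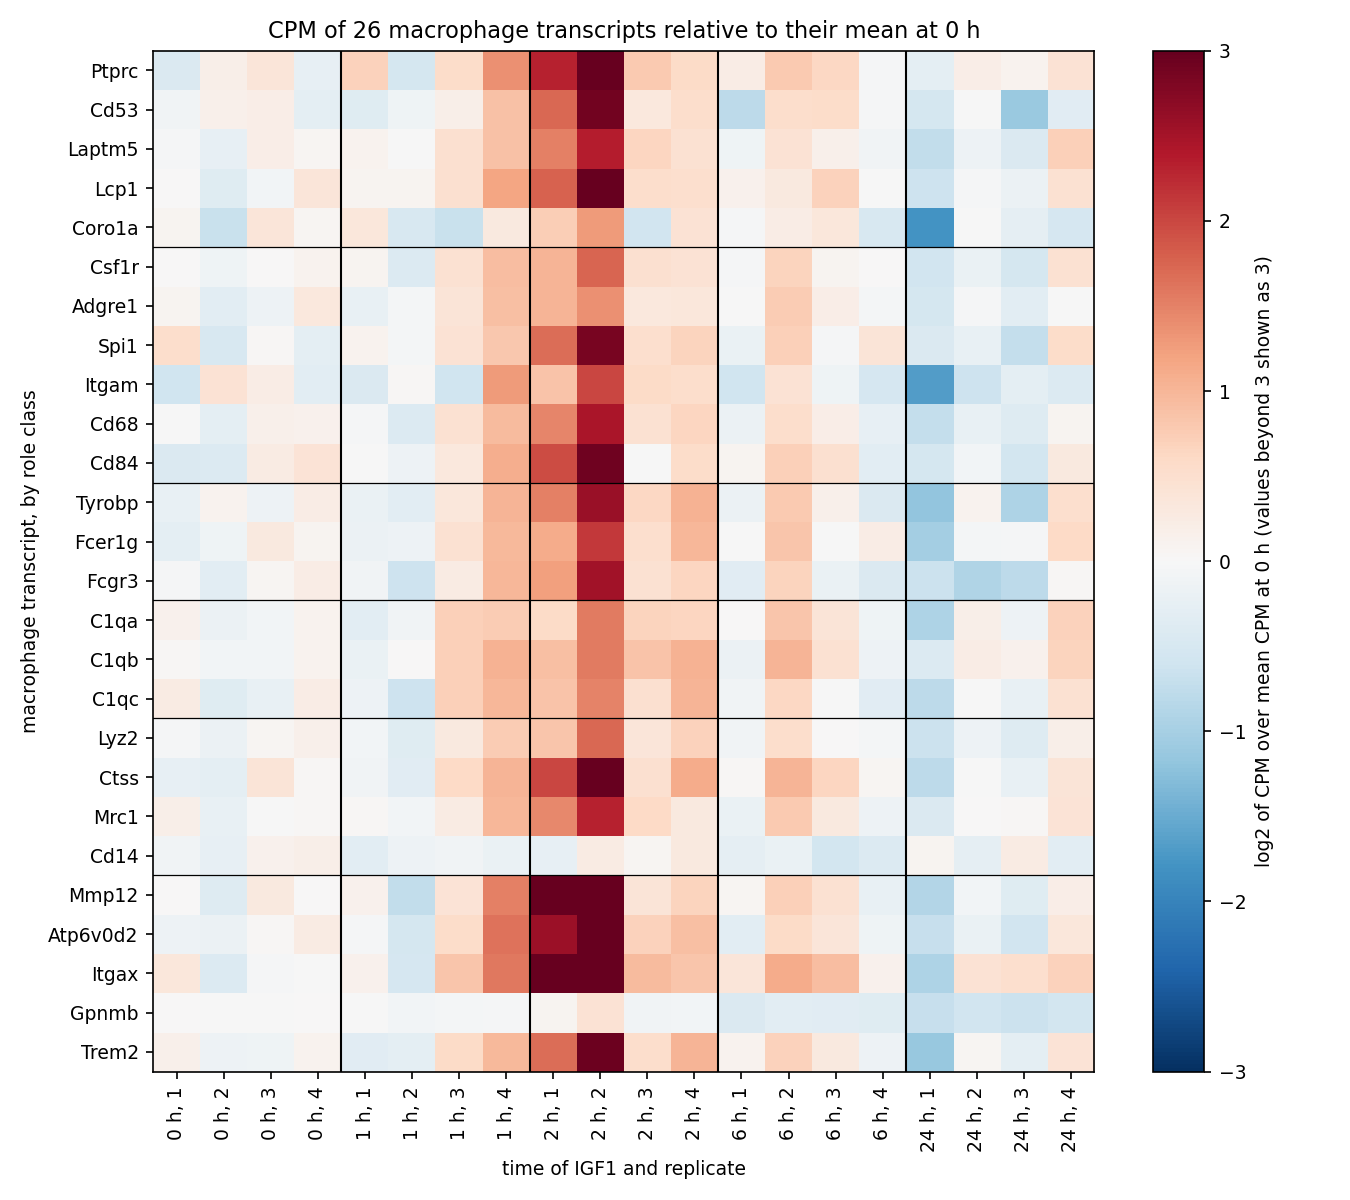
Heat map of the 26 tested members (rows, by role class) in the 20 libraries (columns, by time and replicate), coloured by the log2 ratio of CPM to the member's mean CPM at 0 h. The columns of 2 h replicates 2 and 1 are the most red, and the rows of Gpnmb and Cd14 stay pale there.

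The receptors and the transcription factor of the lineage were among the members called at 2 h. Csf1r, the receptor for CSF1 and IL-34, had 21.1, 34.7, 14.4 and 14.0 CPM in 2 h replicates 1 to 4, against 10.3, 9.49, 10.4 and 11.0 CPM at 0 h (log2 fold change 1.03 ± 0.32 (SE), adjusted p = 0.0167). Adgre1, which encodes the F4/80 surface receptor, had 24.6, 31.7, 15.3 and 15.5 CPM at 2 h, against 13.0, 9.75, 11.0 and 15.1 CPM at 0 h (log2 fold change 0.83 ± 0.28 (SE), adjusted p = 0.0247). In both genes all 2 h libraries lay above the 0 h libraries, with replicate 2 highest and replicate 1 next. Of the exonic bases of Csf1r, 15.1% are shared with Hmgxb3 on the opposite strand, and as the use of strand in counting is not given, those reads cannot be told apart. Spi1 had 6.31, 14.3, 2.82 and 3.16 CPM at 2 h, against 2.87, 1.42, 2.02 and 1.61 CPM at 0 h (log2 fold change 1.75 ± 0.43 (SE), adjusted p = 0.00336). Its 2 h replicate 3 lay just under the highest 0 h library, so the groups overlap. Cd68, a late endosomal glycoprotein, had 46.8, 93.4, 23.5 and 26.8 CPM at 2 h, against 16.8, 13.8, 18.8 and 18.7 CPM at 0 h (log2 fold change 1.49 ± 0.39 (SE), adjusted p = 0.00642). Cd84 (a SLAM family receptor, 1.81 ± 0.51, overlapping) and the integrin Itgam (1.13 ± 0.40) were called as well.

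Leukocyte-wide transcripts had a median log2 fold change of 1.75, beside 1.31 in the macrophage lineage class, a difference that was not tested. Ptprc, the CD45 phosphatase, had 13.1, 26.8, 4.55 and 3.90 CPM in the 2 h libraries, against 1.95, 2.995, 3.39 and 2.23 CPM at 0 h (log2 fold change 2.21 ± 0.52 (SE), adjusted p = 0.00328). Replicates 3 and 4 lay just above the 0 h range, and replicates 1 and 2 far above it. Cd53 (1.75 ± 0.49), the lysosomal membrane protein Laptm5 (1.45 ± 0.38) and the actin-bundling Lcp1 (1.84 ± 0.48) were called higher, so that 4 of 5 tested genes of the class passed.

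All 3 tested signalling adaptors and Fc receptors and all 3 complement chains were called at 2 h. Tyrobp, the ITAM adaptor of many myeloid receptors, had 19.4, 41.5, 10.5 and 14.2 CPM at 2 h, against 5.88, 7.36, 6.17 and 7.95 CPM at 0 h (log2 fold change 1.65 ± 0.45 (SE), adjusted p = 0.00824). The Fc receptor gamma chain Fcer1g (1.31 ± 0.36) and Fcgr3 (1.47 ± 0.43) passed too. C1qb had 14.4, 22.7, 14.0 and 15.8 CPM at 2 h, against 7.83, 7.31, 7.27 and 8.33 CPM at 0 h (log2 fold change 1.12 ± 0.30 (SE), adjusted p = 0.00642). Here replicates 1, 3 and 4 lay close together, and replicate 2 above them. C1qa (0.93 ± 0.32) and C1qc (1.01 ± 0.33) were called higher. Without 2 h replicates 1 and 2 the 3 complement genes kept log2 fold changes of 0.65, 0.95 and 0.77 for C1qa, C1qb and C1qc, with adjusted p-values of 0.204, 0.0605 and 0.175.

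Among lysosomal and scavenger transcripts, 3 of 4 were called. Lyz2, the macrophage lysozyme, had 384, 709.6, 274 and 349 CPM at 2 h, against 208, 189, 223 and 238 CPM at 0 h (log2 fold change 1.00 ± 0.29 (SE), adjusted p = 0.0123). Mrc1, the mannose receptor, had 28.4, 51.8, 15.9 and 12.9 CPM at 2 h, against 11.8, 8.93, 10.4 and 10.7 CPM at 0 h (log2 fold change 1.39 ± 0.38 (SE), adjusted p = 0.00907). Both were above the 0 h range in every 2 h library. Ctss had the highest fold change of the class, at 2.08 ± 0.50. Cd14 had 7.32, 10.2, 8.98 and 10.6 CPM at 2 h, against 7.97, 7.31, 9.51 and 9.75 CPM at 0 h, and the groups overlapped. Its replicate 1 was at the low end of the 0 h libraries, where most members were high.

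Activation members, with 4 of 5 called, had the highest class median, at a log2 fold change of 2.49. Mmp12 had 189.6, 620.4, 24.2 and 29.7 CPM in 2 h replicates 1 to 4, against 18.7, 14.2, 22.7 and 18.8 CPM at 0 h (log2 fold change 3.54 ± 0.83 (SE), adjusted p = 0.00327). Its log2 fold change was 0.53 without 2 h replicates 1 and 2 (adjusted p = 0.425). Replicates 3 and 4 lay just above the 0 h range, and replicates 1 and 2 far above it. Itgax, the CD11c integrin chain, had 32.4, 67.0, 7.31 and 6.83 CPM at 2 h, against 4.87, 2.89, 3.72 and 3.79 CPM at 0 h (log2 fold change 2.90 ± 0.66 (SE), adjusted p = 0.00271). Atp6v0d2 had 44.0, 96.1, 11.9 and 13.8 CPM at 2 h, against 6.67, 6.55, 7.59 and 8.71 CPM at 0 h (log2 fold change 2.49 ± 0.60 (SE), adjusted p = 0.00373). In both genes every 2 h library lay above the 0 h range. Trem2 had 26.5, 62.9, 11.9 and 16.6 CPM at 2 h, against 9.13, 7.41, 7.48 and 8.90 CPM at 0 h (log2 fold change 1.84 ± 0.46 (SE), adjusted p = 0.00486). Gpnmb had 1999.8, 2568, 1746 and 1803 CPM at 2 h, against 1918, 1875, 1877 and 1904 CPM at 0 h. Its replicates 1 and 2 were above every 0 h library, replicate 1 by little, and replicates 3 and 4 were below every 0 h library.

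**Figure D2:**
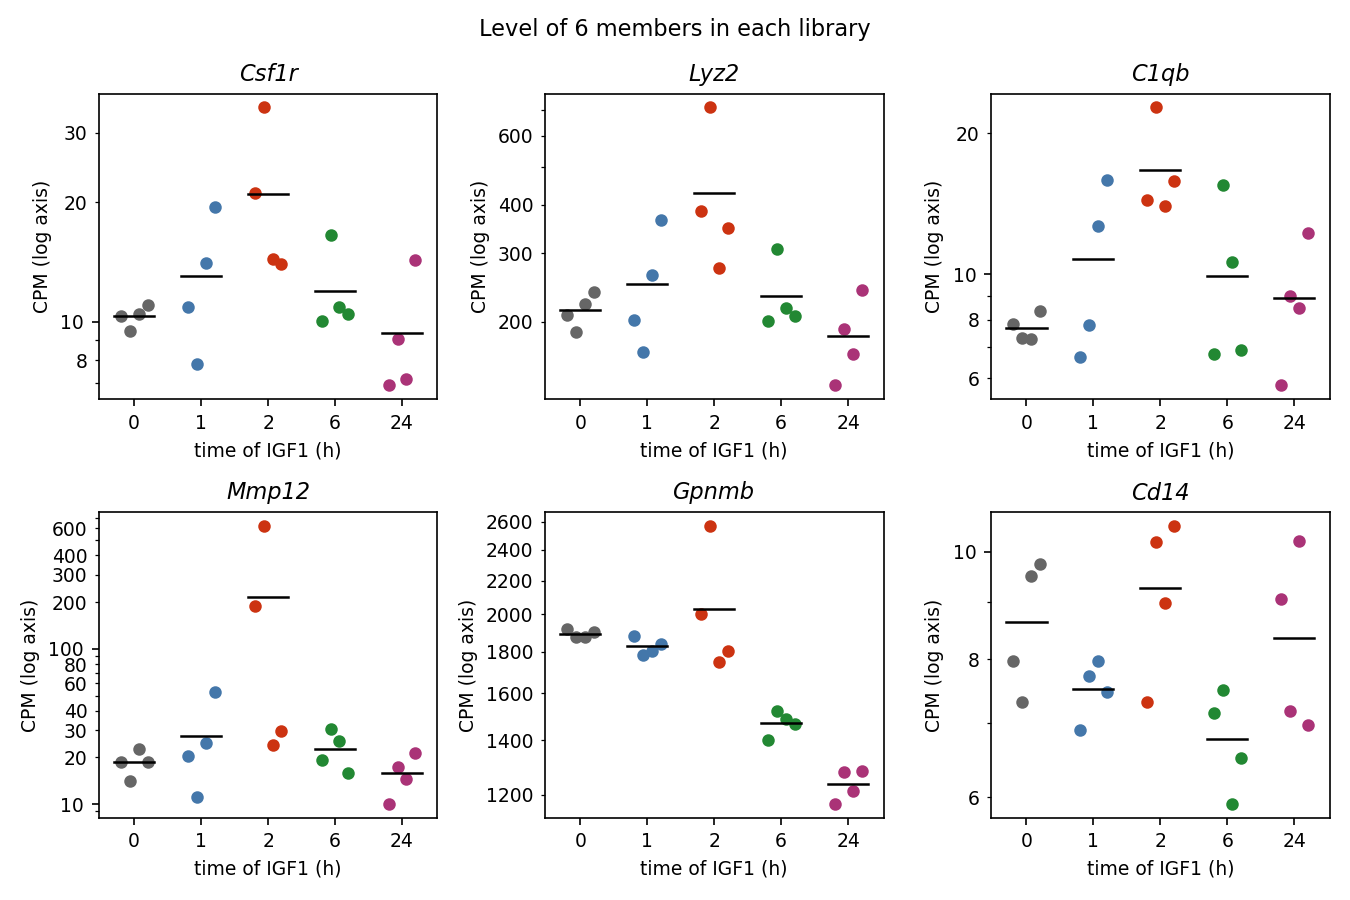
CPM (log axis) of 6 members in each of 4 libraries (points) by time of IGF1, with the mean as a bar. Csf1r, Lyz2, C1qb and Mmp12 peak in 2 h replicate 2, Gpnmb is lowest at 24 h and Cd14 has no such peak.

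**Figure D3:**
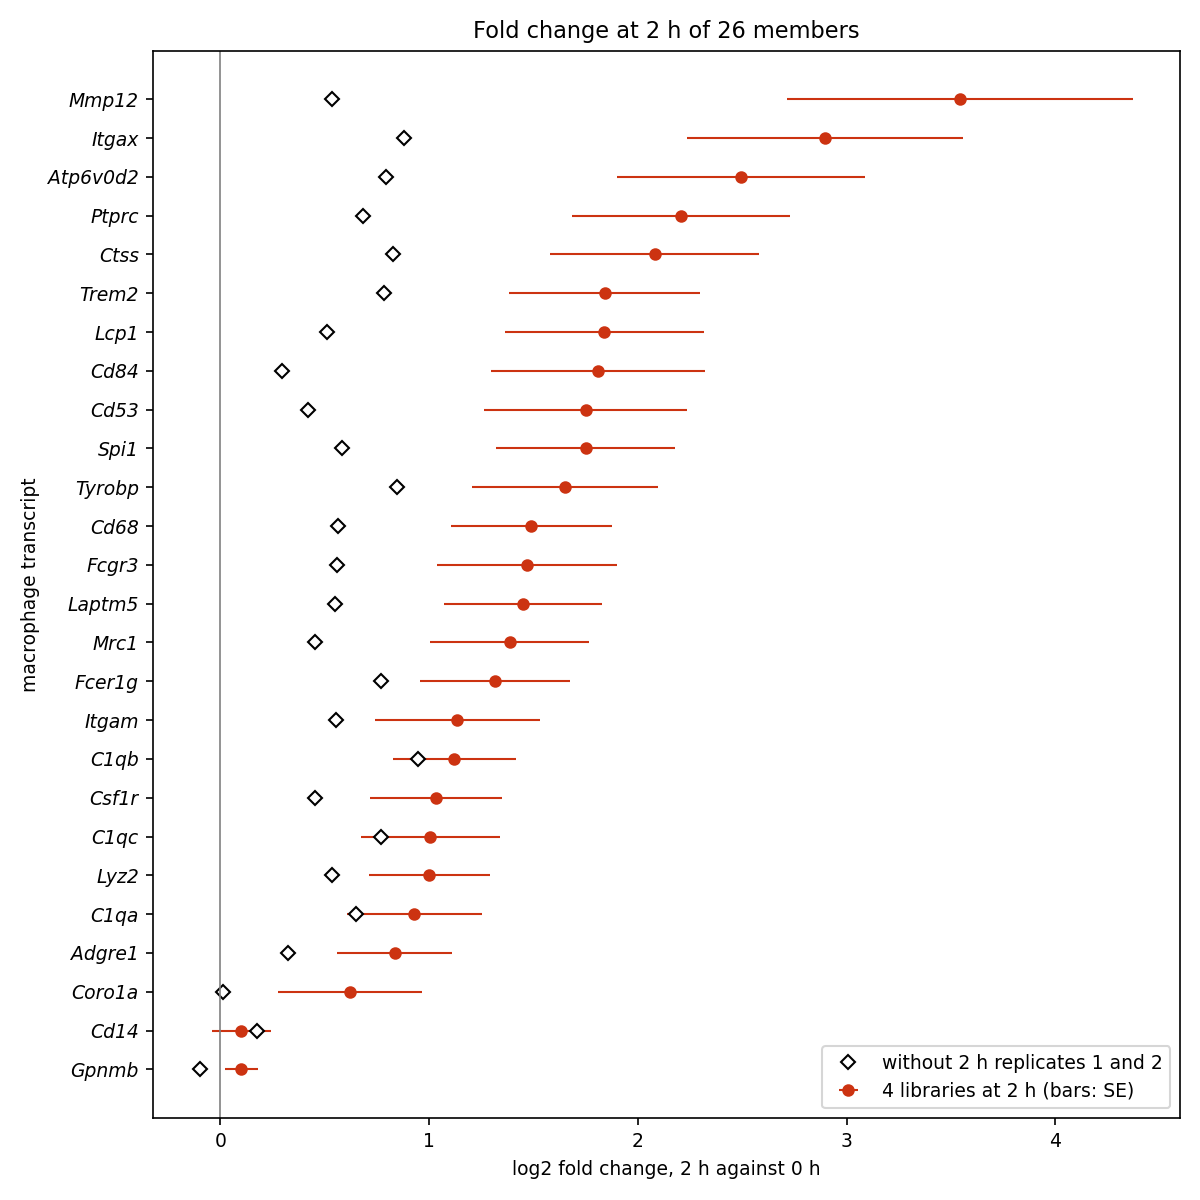
Log2 fold change at 2 h against 0 h of the 26 tested members with all 4 libraries at 2 h (filled points, bars are SE) and without 2 h replicates 1 and 2 (open diamonds). Mmp12 is 3.54 with all libraries and 0.53 without those replicates, and C1qb is 1.12 and 0.95.

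The same 2 libraries led almost every member. Library 2 h replicate 2 was the highest of all 20 for 26 of 30 members, and 2 h replicate 1 came second for 21. Among the 26 tested members, 24 in replicate 3 and 25 in replicate 4 were above their 0 h mean on the log2 scale, and 23 were above it in all 4 replicates. The mean log2 difference of the 21 lineage members from their 0 h mean was 1.13, 1.97, 0.44 and 0.66 in 2 h replicates 1 to 4, and that of the 5 activation members was 2.15, 3.25, 0.49 and 0.67. The median coefficient of variation of the tested members at 2 h was 64.9%, against 15.6% at 0 h, while over all tested genes it was 15.0% at 2 h and 9.16% at 0 h.

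Set against the lineage members of the same library, activation members differed from each other. Mmp12 was 2.23, 3.10, -0.04 and 0.03 log2 units from the lineage mean difference in 2 h replicates 1 to 4, Itgax 1.94, 2.15, 0.51 and 0.18, and Atp6v0d2 1.44, 1.72, 0.26 and 0.23. These 3 exceeded the lineage members by at least 1.44 log2 units in replicates 1 and 2, and by at most 0.51 in replicates 3 and 4. Trem2 (0.55, 0.95, 0.09 and 0.34) exceeded them less than these 3 in replicates 1 and 2, but not in replicate 4. Gpnmb (-1.05, -1.53, -0.55 and -0.74) and Cd14 (-1.35, -1.72, -0.37 and -0.37) fell short of them in all 4. Some lineage members also exceeded this mean in replicates 1 and 2, among them Ptprc by 1.16 and 1.35, Cd84 by 0.86 and 0.97, and Lcp1 by 0.65 and 1.05, each more than Trem2. The mean holds 4 members below the count filter. Over the 17 tested lineage members, a choice made after seeing the data, the mean difference was 1.31, 2.23, 0.47 and 0.66 in 2 h replicates 1 to 4. Relative to that mean Mmp12 was 2.05, 2.84, -0.07 and 0.03, Itgax 1.76, 1.89, 0.48 and 0.19, Atp6v0d2 1.26, 1.46, 0.23 and 0.24 and Trem2 0.37, 0.69, 0.06 and 0.35. These are values of single libraries, given without a test.

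Counts per 100 counts of Lyz2, a ratio within a library that needs no scaling, were compared as well. Mmp12 had 49.4, 87.4, 8.83 and 8.51 counts per 100 of Lyz2 in the 2 h libraries, against 7.50 to 10.2 at 0 h. Ctss had 28.7, 36.1, 13.9 and 17.0 at 2 h, against 11.1 to 16.3 at 0 h. Csf1r had 5.49, 4.89, 5.24 and 4.02 at 2 h, against 4.63 to 5.03 at 0 h. Tyrobp, another lineage member, had 5.06, 5.85, 3.84 and 4.07 at 2 h, against 2.77 to 3.90 at 0 h. In 2 h replicates 1 and 2 the ratios of Mmp12, Ctss and Tyrobp were above their 0 h ranges, and that of Csf1r was within or near its own, so lineage members did not all keep their ratio to Lyz2.

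**Figure D4:**
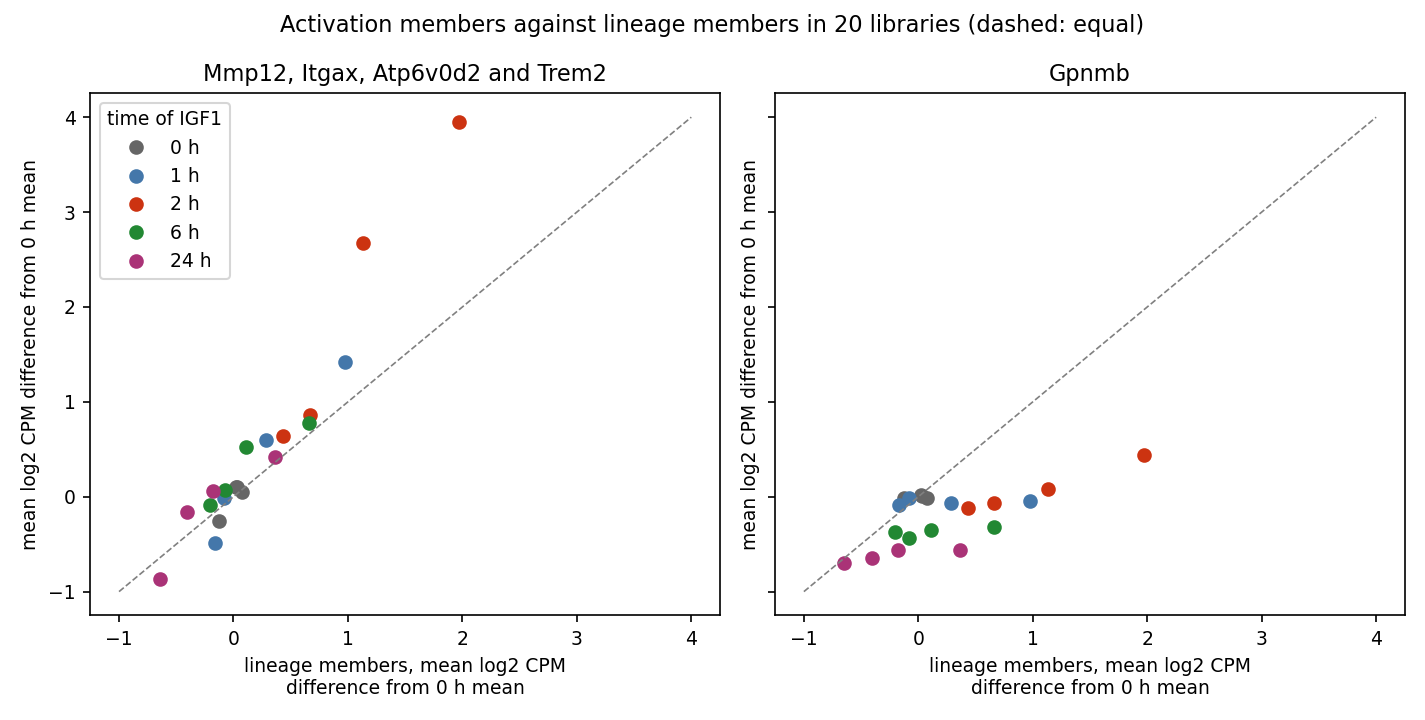
Mean log2 CPM difference from the 0 h mean of 4 activation members (left) and of Gpnmb (right) against that of the 21 lineage members, with 1 point per library, coloured by time. In 2 h replicates 1 and 2 the 4 genes reach 2.67 and 3.95 where the lineage members reach 1.13 and 1.97, while Gpnmb stays at 0.08 and 0.44.

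Other cell type markers also stood apart in 2 h replicate 2. Schwann cell markers summed to 44.9, 106, 39.0 and 35.1 CPM in 2 h replicates 1 to 4, against 38.3 to 45.5 CPM at 0 h. Pericyte and smooth muscle markers summed to 48.7, 88.9, 45.1 and 29.8 CPM at 2 h, against 36.3 to 44.5 CPM at 0 h. Endothelial markers summed to 26.8, 50.7, 25.0 and 22.6 CPM at 2 h, against 39.1 to 42.4 CPM at 0 h. The sum of tenocyte markers was lowest in 2 h replicate 2. It was 63206, 53306, 73558 and 62741 CPM at 2 h, against 72160.5 to 83651 CPM at 0 h. Col1a1 (17545 CPM in 2 h replicate 2) and Col1a2 (14297 CPM) made up most of it. In that library Scx, Col3a1, Lum and, barely, Dcn were above every 0 h library, and the other tenocyte markers were below. In 2 h replicate 1, where the members were also high, Schwann cell markers were within the 0 h range. At 2 h, 20.2% of all tested genes were called higher and 17.5% lower. Of tested markers, 2 of 8 Schwann cell genes (Ngfr and Sox10) and 1 of 6 pericyte and smooth muscle genes (Mcam) were called higher. Both counts were near the share of all genes. Without 2 h replicates 1 and 2 no gene of either list was called. Of 3 tested endothelial genes none was called higher and 1 lower, the receptor Tek, with 22.7, 20.3, 21.2 and 19.8 CPM at 2 h, against 36.4, 38.2, 39.6 and 39.7 CPM at 0 h. Tek made up most of the endothelial sum in all of these libraries except 2 h replicate 2. Among endothelial markers below the count filter, Cdh5 had 0.478, 9.51, 0.0576 and 0.0574 CPM at 2 h, against 0.139, 0.660, 0.219 and 0.237 CPM at 0 h. Pecam1 had 0.478, 7.75, 0 and 0.287 CPM at 2 h, against 0.139, 0.355, 0.0546 and 0.189 CPM at 0 h. Both were high in 2 h replicate 2 and low in the other libraries of these times. Dendritic cell markers summed to 9.09, 7.75, 7.43 and 7.57 CPM at 2 h, against 3.82 to 4.78 CPM at 0 h, with 1 of 2 tested genes called (Zbtb46), and were evenly high in the 4 libraries. Skeletal muscle markers summed to 5.12, 5.38, 5.99 and 5.05 CPM at 2 h, against 2.51 to 4.03 CPM at 0 h, with 2 of 4 called. Adipocyte markers reached at most 2.84 CPM in any library. Some of these markers were also high where most members were highest at 1, 6 and 24 h. In 1 h replicate 4, 6 h replicate 2 and 24 h replicate 4, Ngfr had 4.30, 8.26 and 3.55 CPM. Sox10 had 0.822, 2.50 and 2.26 CPM there, and both genes were highest of their time. Mcam was so at 1 and 6 h (3.80 and 3.14 CPM) but not at 24 h. The Schwann cell sum was lowest of its time in 24 h replicate 4, and Pecam1 and Cdh5 were not high in 6 h replicate 2. The part of these other cells in the members' values was not tested. These genes were named after their values were seen.

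After 1 h of IGF1 no member was called. edgeR called 0 of 26 (0 at an unadjusted p under 0.05) and DESeq2 called 0, beside 6.75% of all tested genes called higher and 3.88% lower. The members' median log2 fold change was 0.35. None of the 26 had all 4 libraries above or below those at 0 h, beside 10.7% of all tested genes above and 7.23% below. Replicate 4 was the highest of the 4 libraries at 1 h for 23 of 26 tested members. In it Mmp12 had 52.9 CPM, Itgax 11.4 CPM and Csf1r 19.5 CPM. Its lineage members averaged 0.98 log2 units above their 0 h mean, and Mmp12, Itgax, Atp6v0d2 and Trem2 averaged 1.42. All 3 genes were above their 0 h range in that library.

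After 6 h, Gpnmb was the 1 member called. Of 26 tested members none was called higher and 1 lower, beside 20.6% and 19.6% of all tested genes. None lay fully above and 1 fully below the 0 h libraries, beside 22.4% and 21.0%. Gpnmb had 1402, 1523, 1488 and 1468 CPM at 6 h, against 1918, 1875, 1877 and 1904 CPM at 0 h (log2 fold change -0.37 ± 0.08 (SE), adjusted p = 4.40e-04). Cd14 had 7.15, 7.50, 5.92 and 6.51 CPM at 6 h, against 7.97, 7.31, 9.51 and 9.75 CPM at 0 h (log2 fold change -0.35 ± 0.14 (SE), adjusted p = 0.0530), and passed under DESeq2. Mmp12 had 19.2, 30.4, 25.7 and 16.0 CPM at 6 h, against 14.2 to 22.7 CPM at 0 h, with 2 libraries above that range. Replicate 2 was the highest 6 h library for 23 of 26 tested members, with 308 CPM of Lyz2 and 16.5 CPM of Csf1r.

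After 24 h, Gpnmb was again the 1 member called. None was called higher and 1 lower, beside 12.7% and 13.2% of all tested genes, and none lay fully above and 1 fully below, beside 15.4% and 16.0%. Gpnmb had 1169.7, 1280.0, 1212 and 1284 CPM at 24 h, against 1918, 1875, 1877 and 1904 CPM at 0 h (log2 fold change -0.61 ± 0.08 (SE), adjusted p = 7.18e-07). All 4 libraries at 24 h were below every library at 6 h as well. The median log2 fold change of the members was -0.14, and 20 of 30 members had their lowest mean at 24 h, but the libraries overlapped with 0 h in every other tested member. Csf1r had 6.90, 9.05, 7.15 and 14.3 CPM at 24 h, against 10.3, 9.49, 10.4 and 11.0 CPM at 0 h. Lyz2 had 137, 192, 165 and 241 CPM at 24 h, against 208, 189, 223 and 238 CPM at 0 h. In both genes replicate 4 was above the 0 h range. Replicates 1 to 3 were below it for Csf1r, and replicates 1 and 3 for Lyz2. Replicate 4 was the highest for 22 of 26 tested members and replicate 1 the lowest for 21.

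Across the 20 libraries, the members can be ordered by how closely their log2 CPM followed the mean of the lineage members. Lyz2 (r = 0.986), Cd68 (0.979) and Csf1r (0.977) followed it most closely, and Trem2 (0.973) and Atp6v0d2 (0.968) nearly as closely. Gpnmb (0.664) and Cd14 (0.187) had the lowest r of the tested members. Each lineage member was compared with the mean of the other lineage members. All values share library depth and scaling, so these r are descriptions. Coro1a, a lineage member, was near Gpnmb at 0.702. Gpnmb thus followed the lineage members weakly, with the same order of the 2 h libraries as many of them, and Cd14 was the least close. Outside the list, among 10345 genes with a mean of at least 5 CPM, the 10 most alike were Mpeg1 (r = 0.954), Cd36 (0.953), Lilr4b, C3ar1, Ms4a7, Ucp2, Lyz1, Plek, Tlr13 and Cybb. Without 2 h replicates 1 and 2, r of these 10 was 0.852 to 0.905 over the other 18 libraries. Among the members, r over these 18 libraries was 0.971 for Lyz2, 0.957 for Cd68 and 0.951 for Csf1r. It was 0.949 for Atp6v0d2, 0.934 for Trem2, 0.469 for Coro1a, 0.430 for Gpnmb and -0.00707 for Cd14.

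Further genes of macrophage biology were counted from lists. Of all tested genes, 20.2% were called higher and 17.5% lower at 2 h. At 1 h these shares were 6.75% and 3.88%, at 6 h 20.6% and 19.6%, and at 24 h 12.7% and 13.2%. Of 24 tested of 27 further macrophage genes, 19 were called higher at 2 h, among them the pattern receptor Clec7a (2.36 ± 0.62), the scavenger receptor Msr1 (2.03 ± 0.51), the WAVE complex subunit Nckap1l (1.97 ± 0.47) and the metal transporter Slc11a1 (1.96 ± 0.49). None of the 24 was called at 1, 6 or 24 h. Of 12 lipid-associated genes 9 were called higher at 2 h, led by the fatty acid receptor Cd36 (2.29 ± 0.57), the sterol exporter Abcg1 (2.27 ± 0.55), the fatty acid carrier Fabp5 (1.12 ± 0.17) and the lectin Lgals3 (0.83 ± 0.19). At 24 h the apolipoprotein Apoe (-0.55 ± 0.13) and the lipase Lpl (-0.91 ± 0.25) were called lower. Of 6 tested osteoclast and fused-cell genes 3 were called higher at 2 h, the RANK receptor Tnfrsf11a (1.75 ± 0.49), the integrin Itgb3 (1.04 ± 0.33) and the transcription factor Nfatc1 (0.61 ± 0.10). Of 7 tested ITAM signalling genes 4 were called higher at 2 h, namely Lcp2 (1.69 ± 0.45), Ptpn6 (1.57 ± 0.38), Syk (1.48 ± 0.53) and Inpp5d (1.34 ± 0.42). Among 5 tested polarization genes 1 was called higher at 2 h, the interleukin-1 receptor antagonist Il1rn (3.59 ± 0.86), and Cd80 (0.99 ± 0.17) at 24 h. Il1rn had 18.03, 64.0, 1.55 and 2.93 CPM at 2 h, against 1.48, 1.73, 2.35 and 1.70 CPM at 0 h, so replicates 1 and 2 were high and the groups overlapped. None of 3 tested MHC class II genes was called at 2 h, and 1 was called higher at 6 h. Of the osteoclast and fused-cell genes, 1 was called higher at 1 h, 1 higher and 1 lower at 6 h, and 1 higher at 24 h. Of the lipid-associated genes 2 were called lower at 6 h. Of the ITAM signalling genes 1 was called lower at 6 h and 1 lower at 24 h. Without 2 h replicates 1 and 2, a check chosen after seeing the data, fewer genes of these lists were called at 2 h. The calls were 1 of 24 further macrophage genes (Ms4a7), 3 of 12 lipid-associated genes (Cd63, Fabp5 and Lgals3) and 1 of 7 osteoclast genes (Nfatc1). They were 0 of 7 ITAM signalling genes and 0 of 6 polarization genes. The count of all genes called in this fit is given above with the members.

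The growth factors that act on the CSF1 receptor were measured in the same libraries. Csf1 averaged 2159 ± 132 CPM at 2 h and 1605 ± 45.8 CPM at 0 h (SD, n = 4 each; log2 fold change 0.43 ± 0.06 (SE), adjusted p = 8.72e-07). Its call held without 2 h replicates 1 and 2 (0.45, adjusted p = 9.30e-07). Csf1 was also called higher at 1 h (0.43 ± 0.06) and 6 h (0.17 ± 0.06), and lower at 24 h, with 1015 ± 36.1 CPM (-0.66 ± 0.06, adjusted p = 5.22e-10). Il34, the other ligand, was near 1.66 CPM at 0 h and was called at no time.

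In the GENCODE M21 annotation of the GRCm38 build, which mm10 also names, Mmp12 lies on chromosome 9, bases 7344381 to 7369499, plus strand, Gpnmb on chromosome 6, bases 49036546 to 49070929, plus strand and Lyz2 on chromosome 10, bases 117277331 to 117282321, minus strand. The C1q genes are neighbours on chromosome 4, C1qb from 136880129 to 136886187, C1qc from 136889804 to 136893065 and C1qa from 136895917 to 136898803. All 30 members are protein-coding. Besides Csf1r, exonic bases are shared with an opposite-strand gene in Cd52 (14.5%), Mmp12 (2.17%, with Mmp1b) and Coro1a (0.934%).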

How the data were processed

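Messenger RNA was measured in 20 libraries, 4 per time of IGF1, and samples were grouped by the labels. The authors deposited raw read counts per gene; the tools in the submitters' processing notes are STAR, FastQC and edgeR, with build mm10. Which counter, annotation and strand setting made the table is not stated. A further deposited table gives the authors' log2 fold changes with p-values and FDR, per the file headers. The authors' deposited table holds 26 members, with 23 higher at an FDR under 0.05 at 2 h, 0 at 1 h, 2 lower at 6 h and 1 lower at 24 h.

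Counts were analysed with edgeR 4.0.16 in R 4.3.3: filterByExpr (14420 genes, 99.9% of counts), TMM, robust dispersions and 1 quasi-likelihood fit of all 20 libraries, each time against 0 h, two-sided, with a Benjamini-Hochberg adjusted p under 0.05 over all genes. An SE is the log2 fold change divided by the root of F. CPM use TMM-scaled library sizes, and log2 CPM a prior count of 2. The scripts were tested on simulated data. Members, lists and named genes were chosen with earlier results of these data known; named genes follow the members' role classes and, in further lists, the largest called differences, up to 4 per list at 2 h and at 24 h, with Csf1 and Il34. Alternatives were DESeq2 1.42.0, RLE scaling, other count filters, the replicate number as a block, only the 8 libraries compared, and fits without libraries.

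The labels of 0 h replicates 1 and 2 carry the same description. A chi-square test of their counts gave a ratio to its degrees of freedom of 8.60, so each was counted. Replicate pairs spanned 3.95 to 9.90 at 0 h and 2.88 to 52.5 over all times. The largest ratios were those of 2 h replicate 4, at 38.8, 52.5 and 41.5 with 2 h replicates 1, 2 and 3. Protein sequences were not used here.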

Additional observations from a re-analysis of the deposited data

Results flagged for a closer look

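Single libraries lay far from the other 3 of their time for 11 of 150 sets of 4 libraries, 1 set for each of 30 members at each of 5 times. The gap to the nearest other library, as a share of the range, exceeded Dixon's 95% critical value for 4 samples. Chance alone does so in about 1 in 20 such sets, and the members are not independent of each other. That rate does not apply to Cd52 at 24 h, Cx3cr1 at 0 and 24 h and Fcgr1 at 1 and 24 h. Those sets held 0 CPM in every library but the flagged one, so the gap was the whole range.

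At 6 h, replicate 2 stood apart with 16.5 CPM of Csf1r, 308 CPM of Lyz2, 10.2 CPM of Fcgr3 and 0.349 CPM of Cx3cr1. At 2 h, replicate 2 stood apart with 23.2 CPM of C1qa and 4.48 CPM of Itgam. At 24 h, replicate 4 stood apart with 0.452 CPM of Fcgr1, 0.129 CPM of Cx3cr1 and 0.0646 CPM of Cd52. The remaining cases were 1 h replicate 4 with 0.127 CPM of Fcgr1 and 0 h replicate 2 with 0.102 CPM of Cx3cr1. The values of Cd52, Cx3cr1 and Fcgr1 rest on few reads. The cause was not tested.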

How the results depend on the processing

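No call of a member changed direction under any alternative. Counts of members called at 1, 2, 6 and 24 h were 0, 23, 1 and 1. They were the same with RLE scaling and with the replicate number as a block (0, 23, 1 and 1). Same-numbered libraries of different times deviated together with a correlation of -0.170 to 0.126, and differently numbered ones with -0.202 to 0.180. No pairing by number was seen, which does not exclude a shared mouse or dish. DESeq2 and a filter of at least 1 CPM in at least 4 libraries each gave 2 at 6 h. With no count filter, 9 were called at 1 h, 6 at 6 h, 4 at 24 h, and 24 in the 2 h comparison. With only the 8 libraries compared they were 15 at 2 h, 3 at 6 h and 2 at 24 h. RLE scaling gave 1 member not overlapping at 1 h. Leaving out 1 library at a time gave 15 to 24 at 2 h, 1 to 2 at 6 h, 0 at 1 h and 1 at 24 h, with the 15 at 2 h from leaving out 2 h replicate 2.

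Without 2 h replicates 1 and 2, which were known to be high, edgeR called 0 at 2 h and 2 at 6 h. DESeq2 without them, chosen after seeing the data, called 1 at 2 h and 2 at 6 h. Also chosen after seeing the data were fits without other libraries. Without 2 h replicates 2 and 4 the counts were 12 at 2 h and 2 at 6 h. Without 1 h replicate 4, 2 h replicates 1 and 2, 6 h replicate 2 and 24 h replicate 4, they were 11 at 2 h, 2 at 6 h and 3 at 24 h. Those libraries were picked for their high member levels, which narrows the spread within each time. The calls of Gpnmb held in all 30 alternatives (log2 fold change -0.38 to -0.34 at 6 h and -0.63 to -0.59 at 24 h). For other changes of a count the cause was not tested. Except for the edgeR fit without 2 h replicates 1 and 2, the shares of all genes called under the alternatives are not given here. The counts of members under them thus stand without that background. Depth limits the 4 members below the count filter, at 28 to 102 counts over 20 libraries.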
